A study of Homo sapiens with 2 samples.

Results

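The regions described here are the 1 Mb bins with the lowest compartment scores on each of 16 chromosomes of HEK293T cells. On chromosomes 1, 2, 3, 6, 7, 8, 9, 10, 12, 15, 16, 17, 18, 19, 20 and 21, bins without a score were dropped. A bin was a member if its score was at or below the 1/3 quantile of its own chromosome. This gave 676 low-score bins among the 2008 scored bins of the 16 chromosomes and the 2883 scored bins of the whole series. The other scored bins were split at the upper quantile of the same size into 662 middle-score bins and 670 high-score bins. All these classes were chosen by the score, so score values are given as a description, while contact domains and loops come from 2 other tables of the same contact map.

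The study mapped chromatin contacts by in situ Hi-C in HEK293T, a human line derived from embryonic kidney that expresses the large T antigen of SV40. There were 2 libraries of 1 group, labelled as replicates 1 and 2, of cells fixed in 1% formaldehyde for 10 min and given no other treatment. Both belong to work on the chromatin remodelling complex NuRD and the insulator protein CTCF, but no depleted or control group was analysed here. The 3 tables have no column for either library, which leaves the values without a replicate error and the depth of each library unknown. The labels do not say whether the libraries came from separate cultures. Positions are in hg19, counted from 1.

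In Hi-C, chromatin divides at the megabase scale into an A and a B compartment, whose regions contact their own kind more often than the other kind. The A compartment is known to be rich in genes and active, and the B compartment to be gene-poor, late replicating and often tied to the nuclear lamina. At finer scale, cohesin extrudes loops of chromatin and stalls at bound CTCF, which gives contact domains and point-like loops. No source used here states the sign convention of the deposited score, so the low-score bins are called by their score and not by the name of a compartment. No gene was placed on these bins, because the gene table supplied is of another genome build.

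All 676 low-score bins had negative scores as deposited. The score that bounded them ranged from -0.147 on chromosome 21 to -0.0287 on chromosome 9, and the number of members from 13 on chromosome 21 to 81 on chromosome 2. The scale is set separately for each chromosome, so such levels cannot be compared between chromosomes. Members held between 36.7% (chromosome 15) and 66.0% (chromosome 2) of the squared score of their chromosome. The lowest score of each chromosome ranged from -0.242 at 24 to 25 Mb of chromosome 21 to -0.110 at 22 to 23 Mb of chromosome 2. Of these 16 lowest bins, 12 had neither a domain midpoint nor a loop anchor. The exceptions were 196 to 197 Mb of chromosome 1 with 1 domain, 91 to 92 Mb of chromosome 12 with 1 domain and 2 anchors, 25 to 26 Mb of chromosome 17 with 2 domains and 4 anchors, and 9 to 10 Mb of chromosome 19 with 3 domains and 2 anchors.

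The boundary of the membership lay in a continuous range of scores. The last bin inside and the first bin outside differed by a median of 0.00142 over the 16 chromosomes. On chromosome 1 they were 220 to 221 Mb (-0.0490) and 158 to 159 Mb (-0.0482), and each held 2 domains. On chromosome 2 they were 127 to 128 Mb (-0.0702) and 33 to 34 Mb (-0.0697), with 1 domain each. The widest step was on chromosome 19, from -0.131 at 12 to 13 Mb to -0.117 at 32 to 33 Mb. The 16 bins just inside held 15 domains and the 16 just outside held 13.

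Low-score bins lay next to each other in runs of a few megabases. The 676 bins formed 191 runs with a median length of 3 Mb (quartiles 2 and 5 Mb), and 47 of the runs were single bins. Runs of 5 Mb or more numbered 57 and held 391 of the members (57.8%), while 5 runs of 10 Mb or more held 68 bins. The middle-score bins were more broken up, with 326 runs of median length 1 Mb, of which 175 were single bins. The high-score bins formed 183 runs with a median of 2 Mb and a longest run of 19 Mb. They lay in long runs at least as often, with 430 bins (64.2%) in 55 runs of 5 Mb or more. Their 9 runs of 10 Mb or more held 137 bins. Of the 382 sides of the low-score runs, 320 bordered a middle-score bin, 42 a high-score bin, 18 a bin without a score and 2 a chromosome end. These figures follow from the score itself and describe how the members are laid out.

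The 5 longest runs differed widely in what they held. The longest, at 66 to 84 Mb of chromosome 1, held 22 domains, 18 loop anchors and 8 loops, and domains covered 35.9% of it. The next, at 185 to 200 Mb of the same chromosome, had 8 domains, 2 anchors and 1 loop over 15 Mb, with 27.2% covered. The run at 6 to 20 Mb of chromosome 20 held 13 domains and 3 loops, and 39.8% of it was covered. The run at 22 to 33 Mb of chromosome 9 had 7 domains and 4 loops but only 14.2% covered, since its longest domain was 390 kb. The run at 117 to 127 Mb of chromosome 7 was similar, with 6 domains, 3 loops and 14.6% covered. On chromosome 1, the long run at 66 to 84 Mb thus had 1.22 domains per Mb, against 0.533 in the run at 185 to 200 Mb.

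**Figure D1:**
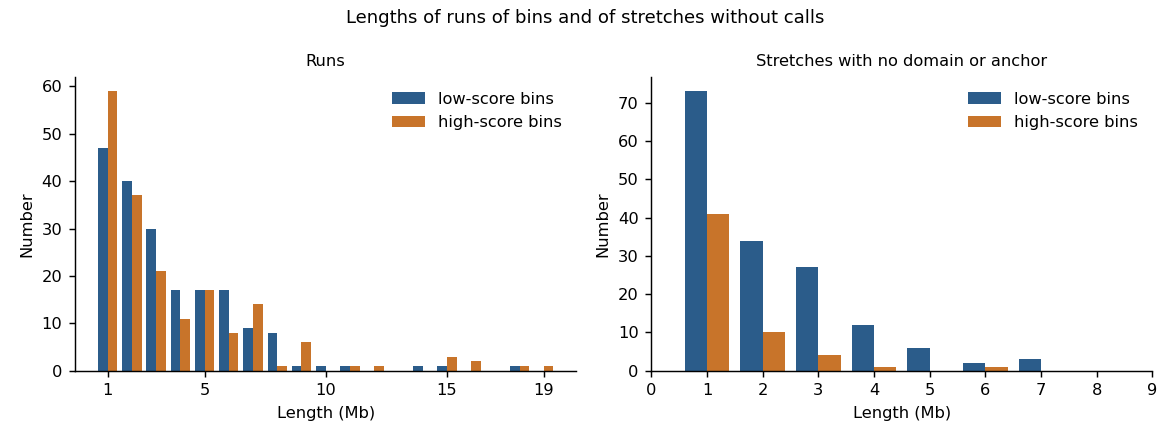
Number of runs of neighbouring bins by their length in Mb (left) and number of unbroken stretches of bins with neither a domain midpoint nor a loop anchor (right), for low-score and high-score bins of 16 chromosomes. Such low-score stretches reach 7 Mb and 50 of them are 3 Mb or longer, against 6 among high-score bins.

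Contact domains were sparse in the low-score bins. Their 676 Mb held the midpoints of 460 domains, or 0.680 per Mb (95% exact Poisson interval 0.620 to 0.746). The middle-score bins held 1.53 per Mb (1.44 to 1.63) and the high-score bins 2.01 per Mb (1.91 to 2.12). The density in low-score bins was 0.338 times that of high-score bins (exact interval 0.303 to 0.376) and 0.445 times that of middle-score bins (0.398 to 0.497). Low-score bins thus made up 33.7% of the scored bins but held 16.3% of the 2821 domains of the 16 chromosomes. All intervals here cover counting error only and treat calls as independent, so with neighbouring bins alike they are too narrow. The whole is 1 map, so no test over samples could be made.

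The gap in covered length was smaller than the gap in number. Domains covered 31.5% of the low-score length, against 50.2% in middle-score and 48.1% in high-score bins. In 367 low-score bins (54.3%) no domain had its midpoint, and 290 (42.9%) held no base of any domain. The share without a domain base was 14.4% in middle-score and 10.4% in high-score bins. Where low-score bins did hold domains they held few, with 198 bins having 1 midpoint, 77 having 2 and 34 having 3 or more. Of the high-score bins, 227 had 3 or more.

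The density fell further toward the lowest scores. When the bins of each chromosome were ranked by score and cut into 12 classes, the lowest class had 0.355 domains per Mb (0.271 to 0.458) and the next 3 had 0.545, 0.848 and 0.948. The fifth class, just above the boundary, had 1.29 (1.13 to 1.48), and the ninth to the last class had between 1.89 and 2.22. Loop anchors followed, with 0.187 per Mb (0.127 to 0.265) in the lowest class, 0.762 in the fourth and 1.14 in the fifth. The members thus differed among themselves, and the intervals of their lowest and highest classes did not overlap for either measure.

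**Figure D2:**
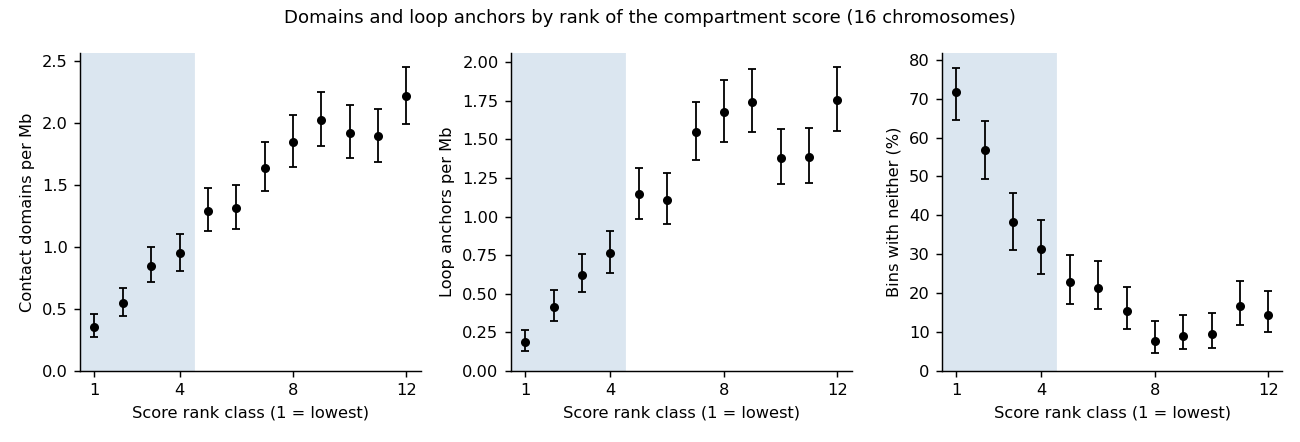
Contact domains per Mb, loop anchors per Mb and the percentage of bins with neither, in 12 classes of bins ranked by score within their chromosome. Bars are 95% intervals (exact Poisson for densities, Wilson for shares) and the shaded classes 1 to 4 hold the low-score bins, apart from 6 members in class 5. Density runs from 0.355 domains per Mb in class 1 to 2.22 in class 12.

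Low-score bins had the lowest densities on each of the 16 chromosomes, though the size of the difference varied. Domain density was lower in low-score than in high-score bins on 16 of 16 chromosomes, and lower than in middle-score bins on 16 of 16. These 16 were taken from 23 chromosomes with earlier results of these data known, so their agreement is a description and not a test. The ratio of low-score to high-score density ranged from 0.156 on chromosome 18 (7 domains in 26 low-score bins) to 0.797 on chromosome 17. Its counting interval lay below 1 on 14 chromosomes, the exceptions being chromosome 16 (0.607, 0.312 to 1.15) and chromosome 17 (0.541 to 1.17). Chromosome 17 stood apart in level, with 51 domains in 27 low-score bins, or 1.89 per Mb. The next highest, chromosome 12, had 1.09 per Mb, and the lowest, chromosome 21, had 0.231 per Mb on 3 domains. Domains covered more of the low-score than of the high-score length on chromosome 17 (52.1% against 36.8%) and on chromosome 16 (39.9% against 27.0%), and less on the other 14. On chromosome 21, domains covered 5.23% of the low-score length.

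**Figure D3:**
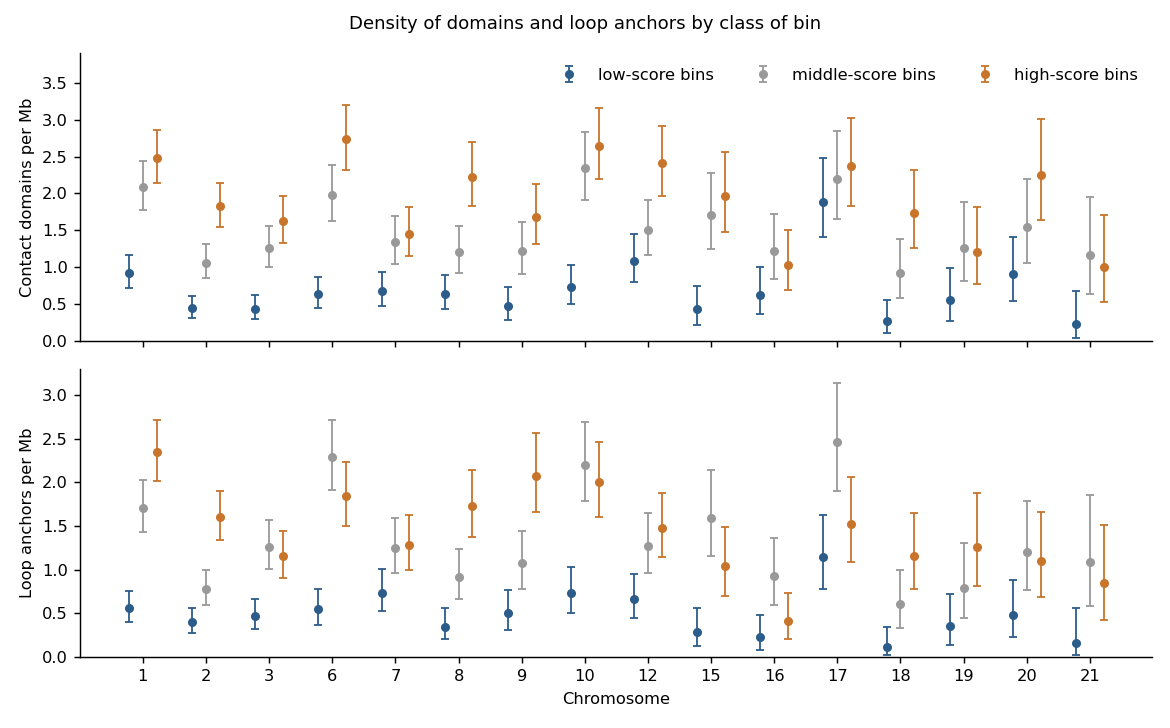
Contact domains per Mb (top) and loop anchors per Mb (bottom) in low-score, middle-score and high-score bins of each of 16 chromosomes, with exact 95% Poisson intervals. The low-score bins are the lowest class on each chromosome in both panels, and chromosome 17 has their highest domain density, 1.89 per Mb.

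Ends of runs held more domains than their interiors. The 335 bins at a run's end had 0.845 domains per Mb (0.749 to 0.949), against 0.506 (0.407 to 0.621) in the second bin from an end, 0.464 in the third and 0.636 (0.459 to 0.860) in the 66 bins farther in. Scores also differ between ends and interiors, so both were split by score. Among members of the 2 lowest rank classes, run ends had 0.642 domains per Mb (0.501 to 0.811) and interiors 0.357 (0.283 to 0.444). Among the other members the values were 0.942 (0.820 to 1.08) and 0.829 (0.672 to 1.01), with overlapping intervals. This split was chosen after the data were seen.

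Close to 1 in 2 low-score bins held no domain midpoint and no loop anchor. Of the 676 bins, 333 (49.3%, Wilson interval 45.5 to 53.0%) had neither a domain midpoint nor a loop anchor, against 16.6% (14 to 19.6%) of middle-score and 12.4% (10.1 to 15.1%) of high-score bins. A further 171 had a domain and no anchor, 34 an anchor and no domain midpoint, and 138 had both. Of the 333, 273 held no base of a domain, and a domain centred elsewhere reached into the other 60. The share with neither was 71.7% in the lowest of the 12 rank classes and 31.4% in the fourth. By chromosome it was highest on chromosome 18 (76.9%), chromosome 21 (69.2%), chromosome 15 (67.9%) and chromosome 9 (66.7%), and lowest on chromosome 17 (22.2%) and chromosome 12 (22.7%).

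Bins with neither lay in 157 stretches with a median length of 2 Mb. Of these, 50 were 3 Mb or longer and held 192 bins, and 11 were 5 Mb or longer and held 63. High-score bins had 57 such stretches, with a median of 1 Mb and 6 of 3 Mb or longer. The 3 longest low-score stretches were each 7 Mb and each was a whole run, at 80 to 87 Mb of chromosome 3, 39 to 46 Mb of chromosome 9 and 59 to 66 Mb of chromosome 16. A domain reached 190 kb into the stretch on chromosome 3, while no domain base lay in those on chromosomes 9 and 16. The next were 6 Mb long, at 19 to 25 Mb of chromosome 19 and 20 to 26 Mb of chromosome 21, also with no domain base. The stretches on chromosomes 9 and 19 ended at bins without a score, at 46 to 47 Mb of chromosome 9 and 25 to 27 Mb of chromosome 19. Chromosome 9 has a further 17 Mb of unscored bins at 48 to 65 Mb. Its stretch at 39 to 46 Mb scored from -0.0364 to -0.0287, the boundary score of that chromosome, whose lowest score was -0.149. In all, 20 members touched an unscored bin or a chromosome end, and 15 of these had neither feature. Without those 20 the share with neither was 48.5% of 656 bins. Sequence that reads cannot be placed on would leave bins without calls as well, and its part was not tested. Over whole runs, 34 of 191 held no domain midpoint and no anchor, 16 of them single bins.

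At the other extreme, a few members were as dense as high-score bins. The bin at 33 to 34 Mb of chromosome 17 held 5 domain midpoints and no anchor, with 89.5% of it covered. The bins at 68 to 69 Mb and 78 to 79 Mb of chromosome 1, 54 to 55 Mb of chromosome 10 and 53 to 54 Mb of chromosome 17 held 4 domains each. The most anchors, 9, lay at 66 to 67 Mb of chromosome 1, the first bin of the longest run. It was followed by 148 to 149 Mb of chromosome 3 with 7, which was also the last bin inside the boundary on its chromosome. The bins at 86 to 87 Mb of chromosome 10, 66 to 67 Mb and 70 to 71 Mb of chromosome 17 had 5 anchors each. The last 2 belong to 1 run at 66 to 72 Mb of chromosome 17, whose 12 domains, 16 anchors and 8 loops in 6 Mb gave it 2.00 domains per Mb and 65.8% covered length.

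The domains that remained were long. Their median length was 340 kb over 460 domains (binomial interval 305 to 380 kb) with quartiles at 170 and 632.5 kb, against 250 kb (235 to 270 kb) in middle-score and 195 kb (180 to 205 kb) in high-score bins. Median length was longer in low-score than in high-score bins on 15 of 16 chromosomes. The exception was chromosome 21, with 180 kb over 3 domains against 250 kb. The classes differed by length. Domains up to 100 kb numbered 4.14 per 100 Mb (2.75 to 5.99) in low-score bins and 27.6 per 100 Mb (23.8 to 31.9) in high-score bins, a ratio of 0.150. The ratio was 0.224 for 100 to 200 kb, 0.260 for 200 to 400 kb and 0.599 (0.463 to 0.772) for 400 to 700 kb. At 700 to 1000 kb it was 1.21 (0.737 to 1.99), and the interval includes equal densities. Domains over 1000 kb numbered 60 in low-score bins, 43 in middle-score and 9 in high-score bins, so that they were 6.61 times as dense in low-score as in high-score bins (3.26 to 15.1). Against middle-score bins the ratio was 1.37 (0.908 to 2.07), which includes equal densities.

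**Figure D4:**
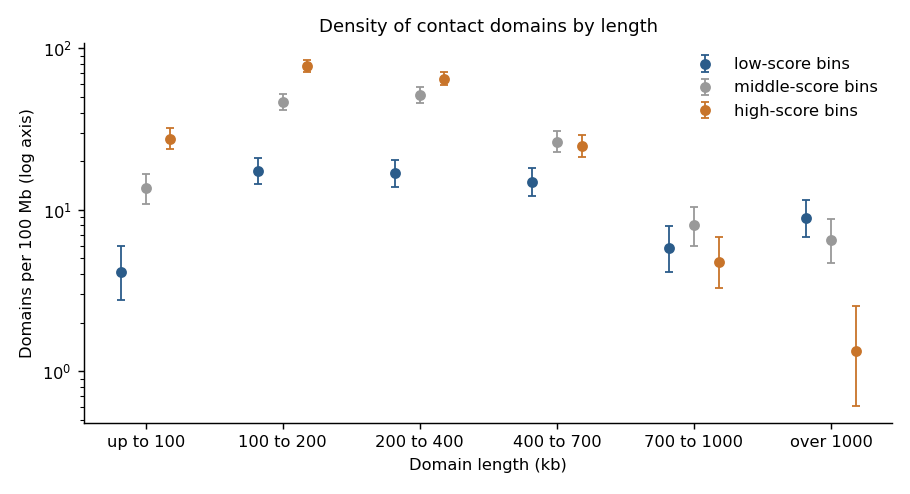
Contact domains per 100 Mb (log axis) by length in kb, for low-score, middle-score and high-score bins, with exact 95% Poisson intervals. Low-score bins lie lowest up to 700 kb, and over 1000 kb they have 8.88 per 100 Mb against 6.50 in middle-score bins, with overlapping intervals, and 1.34 in high-score bins.

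Domains over 1000 kb had low caller scores, with a median of 0.877 in low-score bins, 0.884 in middle-score and 1.08 in high-score bins, against 1.16 for all 460 low-score domains. A split at the median caller score of all listed domains therefore removes most long domains from each class. Above it there were 5 over 1000 kb in low-score, 5 in middle-score and 3 in high-score bins, too few to resolve the ratio of low-score to high-score density (1.65, 0.321 to 10.6). In that set the median length was 240 kb (210 to 280 kb) in low-score, 245 kb (230 to 270 kb) in middle-score and 210 kb (200 to 225 kb) in high-score bins. Among domains at or below the median score the medians were 430 kb (385 to 515 kb), 250 kb (220 to 295 kb) and 170 kb (150 to 180 kb). Domain density above the median score was 0.285 times that of high-score bins (0.243 to 0.334). No source used here defines the caller's score, and this split of lengths was chosen after the data were seen.

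The 8 longest domains illustrate the class. The longest, 3505 kb at chr10:82360001-85865000, lay wholly in members, in a run at 82 to 88 Mb of which domains covered 91.6%. It had a caller score of 0.571. Next came 2175 kb at chr1:237970001-240145000, also wholly in members (score 0.689), and 2170 kb domains at chr2:103440001-105610000 (0.872) and chr10:9360001-11530000 (1.18), which reached into bins of other classes. They were followed by 2100 kb at chr12:86315001-88415000 (0.801) and 1930 kb at chr1:101850001-103780000 (0.222), both wholly in members. The last 2, 1930 kb at chr6:114345001-116275000 (0.662) and 1895 kb at chr16:25270001-27165000 (0.912), each lay on 1 member with both ends outside. None of the 8 had a loop at its corner. Of the 60 domains over 1000 kb, 32 lay wholly in members and 4 had a corner loop.

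Ranked by caller score, the top 8 low-score domains measured 125 to 550 kb, and 4 of them had a loop at their corner. Caller score did not fall steadily with length. In low-score bins its median was 1.12 for domains up to 100 kb, 1.27 for 100 to 200 kb and 1.22 for 200 to 400 kb. It was 1.14 for 400 to 700 kb, 1.03 for 700 to 1000 kb and 0.877 over 1000 kb. A loop is at a domain's corner when its anchors lie within the larger of 50 kb or 0.2 of the loop's length of both ends of the domain. The highest score, 1.81, belonged to a 255 kb domain at chr9:117160001-117415000, followed by 495 kb at chr10:69595001-70090000 (1.80) and 290 kb at chr1:47895001-48185000 (1.79), none with a corner loop. The next 4 all had one. They were chr12:91360001-91745000 (385 kb, 1.78), chr17:70550001-70715000 (165 kb, 1.76), chr16:77250001-77625000 (375 kb, 1.75) and chr7:120615001-120740000 (125 kb, 1.74). The eighth, 550 kb at chr1:78595001-79145000 (1.74), had none. The domain on chromosome 12 lies in the bin with the lowest score of that chromosome.

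Of the 460 domains, 369 (80.2%) lay wholly in low-score bins and 91 reached into a bin of another class, while 82 domains centred elsewhere reached in. Placing domains by midpoint favours this by construction, since 248 of the 460 lay inside a single bin. Of the 212 that crossed a bin border, 121 stayed in low-score bins. Nesting was uncommon, with 21 domains (4.57%) inside a larger listed one, against 8.00% of middle-score and 9.19% of high-score domains. A corner loop was present at 95 low-score domains (20.7%, 17.2 to 24.6%), at 28.2% (25.5 to 31.0%) of middle-score and at 25.6% (23.4 to 28.0%) of high-score domains. For domains of 100 to 200 kb the shares were 32.2% (24.4 to 41.1%) in low-score and 27.8% (24.2 to 31.8%) in high-score bins, with overlapping intervals. For domains of 400 to 700 kb they were 11.9% (6.93 to 19.6%, 12 of 101) in low-score and 25.7% (19.7 to 32.9%, 43 of 167) in high-score bins.

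Loops were also sparse. Low-score bins held 343 loop anchors, or 0.507 per Mb (0.455 to 0.564), against 1.37 (1.28 to 1.46) in middle-score and 1.56 (1.47 to 1.66) in high-score bins. The ratio to high-score bins was 0.324 (0.286 to 0.367), close to that of domains. The ratio to middle-score bins was 0.370 (0.326 to 0.420), lower than the 0.445 (0.398 to 0.497) of domains, with overlapping intervals. There were 0.746 anchors per domain in low-score, 0.896 in middle-score and 0.777 in high-score bins. Anchor density was lower in low-score than in high-score bins on 16 of 16 chromosomes, from 0.100 times on chromosome 18 to 0.756 times on chromosome 17. The limit given above for the choice of the 16 chromosomes holds here too. No anchor lay in 504 low-score bins (74.6%), against 46.7% of middle-score and 42.1% of high-score bins.

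Of the 1149 loops of the 16 chromosomes, 135 (11.7%) had both anchors in low-score bins and 73 had 1 anchor there. The partner of those 73 was a middle-score bin in 64 cases and a high-score bin in 9. Of the 135 loops, 132 kept to 1 run, and 98 lay inside a single bin. With both anchors required in members and a median distance of 260 kb, this is favoured by construction. Those 98 were spread over 82 bins. By identical coordinates, 15 of 328 distinct anchor positions took part in more than 1 loop, none in more than 2. Anchors of 5 and 10 kb that overlap, as at 66415001 and 66410001 of chromosome 1, count as separate, so sharing is undercounted. The first of the 15 in genome order was chr2:189380001-189390000, with loops of 570 and 890 kb. In high-score bins 45 of 990 positions were shared, by up to 9 loops.

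The loops that remained had shapes and strengths close to those elsewhere. Their median anchor distance was 260 kb (220 to 305 kb), the same as in middle-score bins, and 230 kb (200 to 250 kb) in high-score bins. Their pixels held a median of 71 observed contacts (65 to 77), against 78 (73 to 83) in middle-score and 78.5 (75 to 83) in high-score bins. Enrichment, the observed contacts over those expected from the surrounding ring of pixels (the donut), had a median of 2.79 (2.65 to 2.87) in low-score bins, 2.65 (2.59 to 2.73) in middle-score and 2.65 (2.61 to 2.71) in high-score bins. Of the 132 loops up to 2 Mb, 84 (63.6%, 55.2 to 71.3%) lay at a domain corner, against 67.8% (62.8 to 72.3%) in middle-score and 71.0% (66.7 to 75%) in high-score bins. Listed loops all passed the caller's threshold, so these medians say nothing about weaker loops.

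Loop density was lower than in high-score bins in each class of distance, and by more at short range. Loops of 100 to 200 kb numbered 5.18 per 100 Mb (3.61 to 7.20) in low-score and 23.9 per 100 Mb (20.3 to 27.9) in high-score bins. At 800 to 2000 kb the values were 1.33 (0.609 to 2.53, 9 loops) and 2.39 (1.36 to 3.88, 16 loops), with overlapping intervals. Local contact levels were compared at matched distance among loops with 10 kb anchors. For 200 to 400 kb the donut expected a median of 26.1 contacts (23.8 to 34.5, 43 loops) at low-score loops, 32.9 (30.7 to 35.6, 114 loops) at middle-score and 29.5 (26.6 to 33.9, 131 loops) at high-score loops. For 100 to 200 kb it expected 34.1 (30.4 to 38.9), 43.9 (39.5 to 47.0) and 39.0 (36.7 to 41.7). Up to 100 kb the order differed, with 49.9 (30.0 to 57.8, 11 loops) at low-score, 40.3 (34.7 to 48.3) at middle-score and 46.6 (40.4 to 51.3) at high-score loops. At 400 to 800 kb the medians were 24.4, 25.7 and 25.1. In each of these 4 ranges the interval of the low-score loops overlapped that of the high-score loops, and at 100 to 200 kb it lay below that of the middle-score loops. Levels where no loop was listed are not in the tables, and the part of depth in the lower density was not tested.

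**Figure D5:**
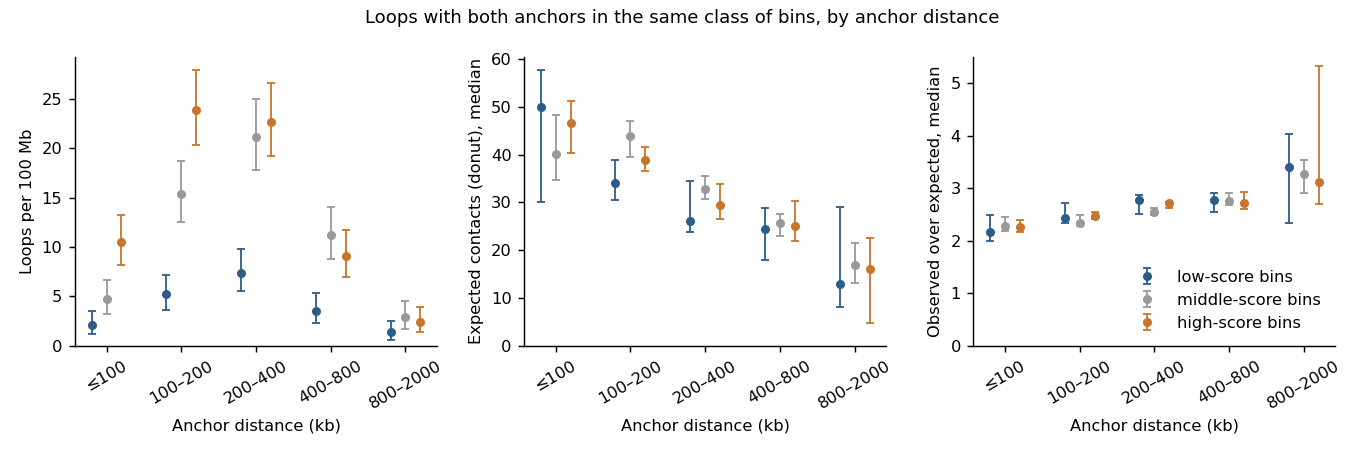
Loops with both anchors in bins of 1 class, by anchor distance in kb: loops per 100 Mb with exact 95% Poisson intervals (left), and for loops with 10 kb anchors the median contacts expected from the donut (centre) and the median observed over expected contacts (right) with binomial intervals. Low-score bins have the fewest loops at each distance, for instance 7.40 per 100 Mb at 200 to 400 kb, while their enrichment overlaps that of the other bins.

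Among low-score loops up to 2 Mb with at least 20 contacts, the highest enrichment belonged to a loop on chromosome 19 between 43530001 to 43540000 and 43850001 to 43860000, with 75 contacts against 16 expected, or 4.68-fold (95% Poisson interval 3.68 to 5.87). It was followed by a 420 kb loop at 42395001 of chromosome 10, next to its unscored bins at 40 to 42 Mb (4.31-fold on 24 contacts), and a 530 kb loop at 162440001 of chromosome 2 (4.21-fold on 22 contacts). Loops of 350 kb at 22310001 of chromosome 20 (4.20-fold on 63 contacts) and 77270001 of chromosome 16 (4.13-fold on 40 contacts) were both at domain corners. The one on chromosome 16 joined the ends of the 375 kb domain with a score of 1.75 named above. The rest were a 1.77 Mb loop of chromosome 17 (4.03-fold on 33 contacts), a 155 kb loop at 85265001 of chromosome 12 (3.98-fold on 47) and a 310 kb loop at 4240001 of chromosome 2 (3.91-fold on 75). With intervals such as 2.76 to 6.41 for the loop on chromosome 10, the order among these 8 is not resolved. It also depends on the expectation used, here the donut. By the highest of the 4 expectations listed for each loop, the loop on chromosome 19 had 2.90 (2.28 to 3.64). The loop on chromosome 10 had 4.31 by that measure.

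The loops with the most contacts were shorter, and all 5 lay at domain corners. On chromosome 1, 195 contacts joined 241790001 to 241800000 with 242000001 to 242010000 (2.41-fold, 2.08 to 2.77). Next were a 100 kb loop at 137590001 of chromosome 7 (153 contacts) and a 270 kb loop at 86020001 of chromosome 10 (136 contacts, 3.35-fold). The last 2 were a 90 kb loop at 48570001 of chromosome 1 (131 contacts) and a 160 kb loop at 77020001 of chromosome 12 (126 contacts). The loop on chromosome 10 lies beyond the end of the longest domain, in the same run.

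The longest loops up to 2 Mb joined separate bins of 1 run. On chromosome 17, a 1.77 Mb loop connected 68760001 to 68770000 with 70530001 to 70540000. Its second anchor ended just before the 165 kb high-scoring domain at chr17:70550001-70715000. Next was a 1.5 Mb loop of chromosome 1 between 97430001 and 98930001 (3.45-fold on 38 contacts), and a 1.12 Mb loop of chromosome 8 between 128740001 and 129860001 (2.77-fold on 46 contacts). A pair of loops on chromosome 9, of 1.07 Mb and 980 kb, shared the anchor at 118350001 to 118360000. These last 2 were at domain corners, while the first 3 were not.

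Of the 58 loops longer than 2 Mb on the 16 chromosomes, 3 joined low-score bins to each other, against 135 (11.7%) of all 1149 loops. With 3 loops, a difference between these shares was not tested. A pair on chromosome 17 joined 21230001 to 21240000 with 25330001 to 25340000 (43 contacts, an enrichment of 7.29 by the donut and 5.36 by the highest of the 4 local expectations) and 21340001 to 21345000 with 25325001 to 25330000 (33 contacts, 11.4 and 4.09). Their anchors lie on either side of the unscored bins at 23 to 25 Mb, and the second anchors fall in the bin with the lowest score of the chromosome. The remaining loop, on chromosome 10, linked 110910001 to 110920000 with 113650001 to 113660000 on 13 contacts (7.43-fold, 3.96 to 12.7).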

How the data were processed

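In situ Hi-C was made on 2 HEK293T libraries of 1 group. The submitters' processing notes list BWA 0.7.8, FastQC 0.11.7, Picard and build hg19, with no roles. No source used here gives the way the libraries were combined, the compartment method or the domain caller. The deposited compartment table gives 1 score per 1 Mb bin, with squares that sum to 1 on each chromosome. The deposited domain table, on 5 kb bins per its name, gives a caller score. The deposited loops come from HiCCUPS at 5 and 10 kb, going by the table's name. Per the file headers, columns give the observed contact count of each loop pixel, the authors' expected signal from 4 neighbourhoods and their FDR q-values. Only features past a caller's threshold are listed.

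Quantiles were interpolated linearly over scored bins. A domain was placed by its midpoint and an anchor by its centre. A bin without a score ended a run. Distances are start to start. Shares have Wilson, counts exact Poisson, ratios exact binomial (Clopper-Pearson) and medians binomial order-statistic 95% intervals, computed with Python 3.11.15 and SciPy 1.17.1. The calculation of the density ratio was checked on simulated independent counts with preset rates. That check does not cover the likeness of neighbouring bins. The bins, comparisons and rule for named regions were chosen with earlier results of these data known. The rule named the 5 longest runs and stretches, the 5 members with most domains or anchors, the 8 longest and 8 highest-scoring domains, loops by enrichment (8), contacts (5) and length (5), loops over 2 Mb, the first most shared anchor, and the bins at each boundary. Gene tables supplied were of GRCh38 and were not used.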

Additional observations from a re-analysis of the deposited data

How the results depend on the processing

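The tables hold both libraries together, so neither library could be left out. No paired analysis was possible because there is 1 group and the tables have no column for either library. Of 81 values recomputed under other settings, 47 stayed within the interval given in the report and 34 did not. Taking these settings and the omission of single chromosomes together, there were 46 ratios of domain or anchor density, most of them from the omissions. They stayed between 0.277 and 0.466, with low-score bins below high-score bins in each. Leaving out 1 chromosome at a time moved no value out of its interval: domain density ranged from 0.630 (without chromosome 17) to 0.713 per Mb and its ratio from 0.315 to 0.352, anchor density from 0.481 to 0.523 per Mb and its ratio from 0.307 to 0.343, and the share with neither from 48.1% to 51.1%. Median domain length ranged from 332.5 to 365 kb, covered length from 29.6% to 33.2%, anchor distance from 250 to 270 kb, enrichment from 2.77 to 2.81, corner share from 19.6% to 21.2% and the ratio of domains over 1000 kb from 5.83 to 8.75, while median run length stayed at 3 Mb.

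With the quantile at 0.25 in place of 1/3, domain density was 0.585 per Mb with a ratio of 0.289, anchor density 0.418 per Mb with a ratio of 0.277, the share with neither 55.2% and enrichment 2.87. With the quantile at 0.5 these were 0.894 per Mb and 0.466 for domains, 0.713 per Mb and 0.452 for anchors and 40.2% with neither, while covered length was 37.5% and median run length 4 Mb. With the sign of the score they were 0.919 per Mb and 0.466, 0.733 per Mb and 0.452, 38.7%, 38.4% and 4 Mb. Counting a domain in each bin it overlaps gave 1.01 per Mb, a ratio of 0.398 and 40.4% with neither. With only domains above the median caller score there were 0.300 per Mb, a ratio of 0.285, 65.2% of bins with neither, a median length of 240 kb, 10.0% of length covered, 32.0% with a corner loop, and a ratio of 1.65 for domains over 1000 kb, a setting added after the data were seen. With only loops at an FDR of up to 0.01 in all 4 neighbourhoods, anchor density was 0.396 per Mb and the corner share 16.7%. Taken against the highest of the 4 expectations, enrichment was 2.22, and a corner tolerance of 10 kb gave a share of 12.8%. The lower densities and covered length under stricter domains or loops follow from fewer features being counted. So do the higher share with neither under stricter domains and the lower corner share under stricter loops. Counting a domain in each bin it overlaps can only raise the count and lower the share with neither. The highest of the 4 expectations can only lower enrichment, and a tolerance of 10 kb can only lower the corner share. For the other values the cause was not tested.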

Other observations

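Loops with 1 anchor in a low-score bin had a median distance of 550 kb. Such a loop must cross a bin border, which favours long ones by construction. Of these 73 loops, 11 were longer than 2 Mb. On chromosome 7, 4 of them joined low-score bins between 153430001 and 153850000 to middle-score bins between 149640001 and 149940000. Their outermost pair of anchors, 4.20 Mb apart, had 18 contacts (an enrichment of 33.6 by the donut and 14.4 by the highest of the 4 expectations), and the innermost, 3.5 Mb apart, had 17 (8.16 and 6.45). The 4 loops were nested, each lying inside the next longer one. On chromosome 3, anchors at 330001 and 410001, in the run at 0 to 9 Mb, both paired with 75270001 to 75280000, 74.9 Mb away, on 15 and 19 contacts. Their enrichment was 323 and 422 by the donut, where under 1 contact was expected, and 5.19 and 7.70 by the highest expectation. The longest of the 11 joined 133030001, in a middle-score bin, to 230040001 of chromosome 2, 97.01 Mb away, on 33 contacts. Its enrichment was 2408 by the donut and 1931 by the highest expectation, where only 0.0137 and 0.0171 contacts were expected. Another on chromosome 2 joined 89070001 to 97830001, in a high-score bin, on 13 contacts (128 and 91.8). It spanned the unscored bins at 93 to 95 Mb, and 0.102 and 0.142 contacts were expected. These ratios rest on expectations far under 1 contact. The other 3 were at 241615001 of chromosome 1 (3.665 Mb, 49 contacts, 6.73 and 4.68), 57110001 of chromosome 7 (5.87 Mb, 40 contacts, 5.54 and 2.61) and 38370001 of chromosome 10 (4.68 Mb, 25 contacts, 8.53 and 7.48). The last 2 spanned unscored bins, at 59 to 61 Mb of chromosome 7 and 40 to 42 Mb of chromosome 10.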
